A study of Homo sapiens with 12 samples.

Results

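The genes described here encode 9 enzymes of serine synthesis and folate one-carbon metabolism: PHGDH, PSAT1, PSPH, SHMT1, MTHFD1, SHMT2, MTHFD2, MTHFD1L and ALDH1L2. They were taken by symbol from the 60649 genes of each deposited count file, and each symbol matched 1 gene. The choice was made with earlier results of these data known. The RNA came from SBC3, an established human small cell lung cancer line, grown as spheroids. There were 12 libraries in 4 treatment groups of 3: control, teriflunomide, lurbinectedin, and teriflunomide with lurbinectedin, called the combination below. Teriflunomide inhibits DHODH, a mitochondrial enzyme of pyrimidine synthesis, and lurbinectedin binds DNA and blocks transcription by RNA polymerase II. The series asks about the joint action of the drugs and about mitochondrial fragmentation through DRP1. All groups share the single cell line, the labels used here state no dose, exposure time or vehicle, and they do not say that replicates were separate cultures. The p-values therefore measure the spread between these libraries, which may be technical.

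Cells make serine from the glycolytic intermediate 3-phosphoglycerate through PHGDH, PSAT1 and PSPH in turn. Serine then gives a carbon unit to tetrahydrofolate, through SHMT1 in the cytosol or SHMT2 in mitochondria, and the folate-bound carbon is then interconverted or released by MTHFD1 in the cytosol and by MTHFD2, MTHFD1L and ALDH1L2 in mitochondria. The carbon units are used to build purines and thymidylate and to methylate other molecules, and the mitochondrial arm can export them as formate. Proliferating tumour cells often carry high levels of these enzymes, and the transcription factor ATF4 is known to activate several of their genes.

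Total counts were 23206414 to 33222162 per library. Of the genes counted, 16683 passed the expression filter, and all 9 enzyme genes were among them. Counts on the mitochondrial genome made up 6.26% to 7.17% of the control libraries and 8.42% to 17.0% of the treated libraries, except for teriflunomide replicate 3 at 22.6% and combination replicate 2 at 24.9%. Several results that change without these libraries are given both ways. Of the neuroendocrine markers of small cell lung cancer, INSM1 and GRP were at 0 in every library. NEUROD1 stood at 4.03 CPM (counts scaled to a common library total) and SYP at 16.8 CPM in control, whereas YAP1 was at 246 CPM. With lurbinectedin NEUROD1 was at 1.62, SYP at 30.9 and YAP1 at 64.9 CPM. The 4 epithelial markers summed to 236.3 to 252.0 CPM in control and 400.1 to 433.1 CPM with lurbinectedin, nearly all from KRT8. In any library KRT18 was at most 0.322 CPM, EPCAM at most 0.0638 CPM and CDH1 at most 0.0485 CPM. Of the 4 leukocyte markers CD3E was at 0 throughout and PTPRC at most 0.0957 CPM, and the list summed to 0.0670 to 0.149 CPM in control and 1.09 to 1.99 CPM with lurbinectedin, mostly through CD79A. The 5 fibroblast markers summed to 520.1 to 549.8 CPM in control and 186.8 to 220.5 CPM with lurbinectedin, nearly all from COL1A1 and COL1A2, while LUM was at 0 and DCN at most 0.0485 CPM. The 3 endothelial markers summed to at most 0.579 CPM in any library. The part of these marker changes in the results below was not tested. In bulk RNA, fewer cells of a kind and less RNA per cell cannot be told apart.

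With lurbinectedin, 7 of the 9 genes fell, 1 rose and 1 was not called. PHGDH, PSAT1, PSPH, SHMT1, MTHFD1, MTHFD1L and ALDH1L2 fell, MTHFD2 rose, and SHMT2 was higher but missed the threshold. A gene was called at an adjusted p under 0.05 in edgeR's quasi-likelihood test, with Benjamini-Hochberg adjustment over all genes tested. Lurbinectedin changed much of the transcriptome: 71.6% of all genes were called, 35.7% lower and 36.0% higher. The median log2 fold change of the 9 genes was -1.22, against 0.05 for all genes. All 3 lurbinectedin libraries lay below all 3 control libraries for the 7 genes that fell and above them for MTHFD2 and SHMT2, an arrangement found in the lower direction for 40.8% and in the higher direction for 42.4% of all genes.

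**Figure D1:**
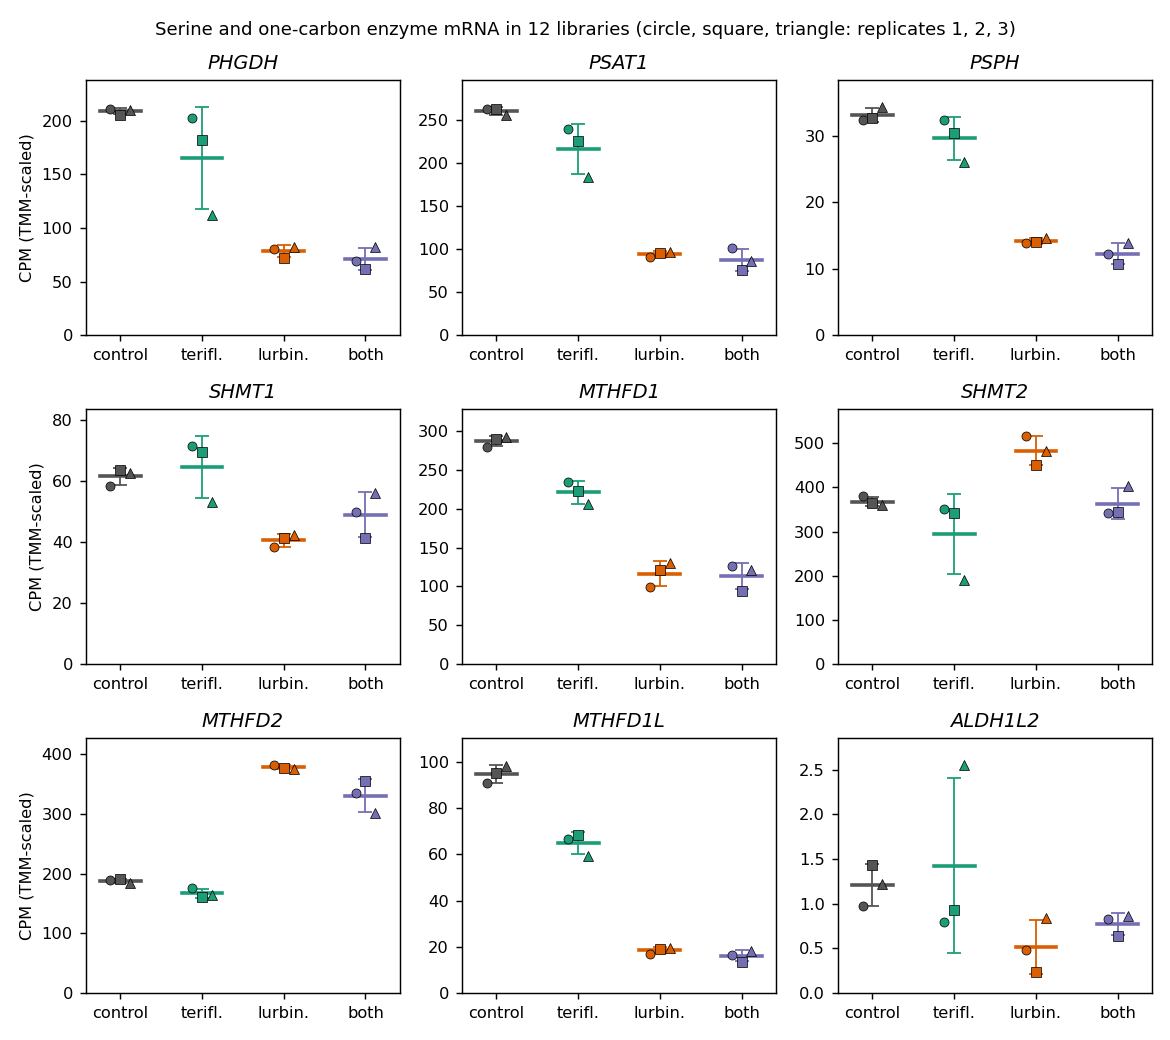
CPM scaled by the trimmed mean of M values (TMM) for each enzyme gene (y axis, linear from 0) in the 4 treatment groups (x axis), with 1 point per library, the mean as a thick line and the SD over 3 libraries as error bars. PHGDH, PSAT1, PSPH, MTHFD1 and MTHFD1L are low in all 6 libraries that received lurbinectedin, whereas MTHFD2 is high in the same 6.

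The 3 serine synthesis genes fell by similar amounts with lurbinectedin. PHGDH (ENSG00000092621.13, GRCh38 chromosome 1, 119648411 to 119744218) encodes the dehydrogenase that commits 3-phosphoglycerate to serine. It was at 210.6, 205.5 and 210.2 CPM in control and at 80.3, 71.7 and 82.1 CPM with lurbinectedin. The log2 fold change was -1.42 (SE 0.178, edgeR adjusted p = 6.55e-06), and every lurbinectedin library was below every control library. With teriflunomide PHGDH was at 202.4, 181.7 and 112.1 CPM, so that replicate 3 lay far below its partners. In the combination it was at 69.4, 61.4 and 82.4 CPM, a range that overlaps that of lurbinectedin alone.

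PSAT1 (ENSG00000135069.14, chromosome 9, 78297125 to 78330093) encodes the aminotransferase of the second step. Control libraries had 263.4, 263.7 and 256.0 CPM, and lurbinectedin libraries 90.5, 95.6 and 96.6 CPM. Its log2 fold change was -1.47 (SE 0.122, edgeR adjusted p = 1.03e-07). Teriflunomide libraries had 239.4, 226.4 and 183.9 CPM, all below control, and combination libraries 101.3, 75.4 and 86.0 CPM, on either side of lurbinectedin alone. Per kilobase of exon PSAT1 had the highest level of the 9 genes in control, at 118 CPM per kilobase, ahead of SHMT2 at 80.1 and MTHFD1 at 23.5. That order depends on the annotated exon length, 2206 bases for PSAT1, 4592 for SHMT2 and 12208 for MTHFD1. In CPM alone the control means of SHMT2 (367.6) and MTHFD1 (287.3) were above that of PSAT1 (261.0).

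PSPH (ENSG00000146733.14, chromosome 7, minus strand, 56011051 to 56051604) encodes the phosphatase that releases serine. It had 32.5, 32.7 and 34.4 CPM in control, 13.9, 14.1 and 14.7 CPM with lurbinectedin, and 12.3, 10.8 and 13.9 CPM in the combination. The lurbinectedin log2 fold change was -1.22 (SE 0.124, edgeR adjusted p = 7.27e-07), with no overlap between the groups. With teriflunomide it had 32.4, 30.5 and 26.1 CPM, just below the control libraries. Its copy PSPHP1 took 120 to 515 counts against 255 to 1151 for PSPH, so reads may have been split between them and the PSPH values are uncertain.

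The ratio of PSAT1 to PHGDH counts, which does not depend on how libraries are scaled, tells whether the pair moved apart. On the log2 scale it was 0.32 ± 0.0376 (SD, n = 3) in control, 0.42 ± 0.254 with teriflunomide, 0.27 ± 0.127 with lurbinectedin and 0.30 ± 0.242 in the combination. The groups overlapped in all 5 comparisons, with exact two-sided permutation p-values of 0.6 to 0.9. The lurbinectedin difference from control was -0.05 (SE 0.0766), small beside the fall of either gene.

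The cytosolic folate genes also fell with lurbinectedin, MTHFD1 more than SHMT1. MTHFD1 (ENSG00000100714.17, chromosome 14, 64388031 to 64463457) encodes a trifunctional enzyme that interconverts the folate-bound carbon units. It had 279.6, 290.0 and 292.3 CPM in control and 98.7, 121.5 and 129.9 CPM with lurbinectedin, without overlap. The log2 fold change was -1.30 (SE 0.127, edgeR adjusted p = 5.53e-07). Combination libraries had 126.1, 93.8 and 120.9 CPM, with replicate 2 below every lurbinectedin library and the other 2 within their range.

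SHMT1 (ENSG00000176974.20, chromosome 17, minus strand, 18327860 to 18363563) encodes the cytosolic serine hydroxymethyltransferase. Control libraries had 58.3, 63.6 and 62.7 CPM, and lurbinectedin libraries 38.2, 41.3 and 42.1 CPM. The fall was the smallest of the 7, with a log2 change of -0.60 (SE 0.136, edgeR adjusted p = 0.00122). With teriflunomide SHMT1 had 71.4, 69.5 and 53.0 CPM, which straddled control. In the combination it had 49.7, 41.4 and 56.0 CPM, with 2 of 3 libraries above all lurbinectedin libraries. Its exons share 197 bases with SMCR8 on the other strand, and the use of strand in counting was not stated in the sources used here.

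Among the mitochondrial genes the directions differed. MTHFD2 (ENSG00000065911.13, chromosome 2, 74186172 to 74217565) encodes the mitochondrial methylenetetrahydrofolate dehydrogenase and cyclohydrolase. It had 188.9, 190.5 and 184.6 CPM in control and 382.5, 377.0 and 375.8 CPM with lurbinectedin. This 2.01-fold rise (log2 fold change 1.01, SE 0.0863, edgeR adjusted p = 1.32e-07) was the only called rise among the 9 genes. Combination libraries had 335.8, 355.3 and 301.7 CPM, above every control library and below every lurbinectedin library. Teriflunomide libraries had 175.5, 160.7 and 164.0 CPM, all below control.

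MTHFD1L (ENSG00000120254.16, chromosome 6, 150865679 to 151101887) encodes the mitochondrial synthetase that releases formate. It had 90.9, 95.5 and 98.6 CPM in control, 66.8, 68.6 and 59.5 CPM with teriflunomide, 17.1, 19.2 and 19.6 CPM with lurbinectedin, and 16.4, 13.5 and 18.3 CPM in the combination. All teriflunomide libraries lay between the control libraries and the libraries that received lurbinectedin. The lurbinectedin fall was 5.10-fold (log2 fold change -2.35, SE 0.126, edgeR adjusted p = 1.44e-09), the largest of the 9 genes.

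SHMT2 (ENSG00000182199.11, chromosome 12, 57229573 to 57234935) encodes the mitochondrial serine hydroxymethyltransferase. Control libraries had 379.4, 364.3 and 359.3 CPM, and lurbinectedin libraries 516.4, 451.0 and 483.0 CPM, all above control. The log2 fold change of 0.40 (SE 0.175) had an edgeR adjusted p of 0.0570. Teriflunomide libraries had 351.8, 341.6 and 190.6 CPM, with replicate 3 far below its partners. Without that library the lurbinectedin difference was 0.38 (edgeR adjusted p = 0.00025), and with only the control and lurbinectedin groups in the fit the adjusted p was 6.80e-08. In the combination SHMT2 had 342.6, 343.6 and 403.7 CPM, on either side of control and below every lurbinectedin library.

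ALDH1L2 (ENSG00000136010.14, chromosome 12, minus strand, 105019784 to 105107643) encodes a mitochondrial dehydrogenase that oxidises formyl-tetrahydrofolate. It was barely detected, with 6 to 75 counts per library. Control libraries had 0.972, 1.44 and 1.23 CPM, teriflunomide libraries 0.791, 0.928 and 2.56 CPM, lurbinectedin libraries 0.485, 0.235 and 0.836 CPM, and combination libraries 0.833, 0.632 and 0.862 CPM. The lurbinectedin fall (log2 fold change -1.20, SE 0.487, edgeR adjusted p = 0.0396) was lost in 5 of the 12 fits that left out 1 library, namely control replicate 2 or 3 (adjusted p = 0.103 and 0.0729), lurbinectedin replicate 1 or 2 (0.0839 and 0.146) or combination replicate 3 (0.0505). ALDH1L2 shares exon bases on the other strand with NOPCHAP1 and WASHC4, which had 1407 to 7835 counts, so its few reads are uncertain.

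**Figure D2:**
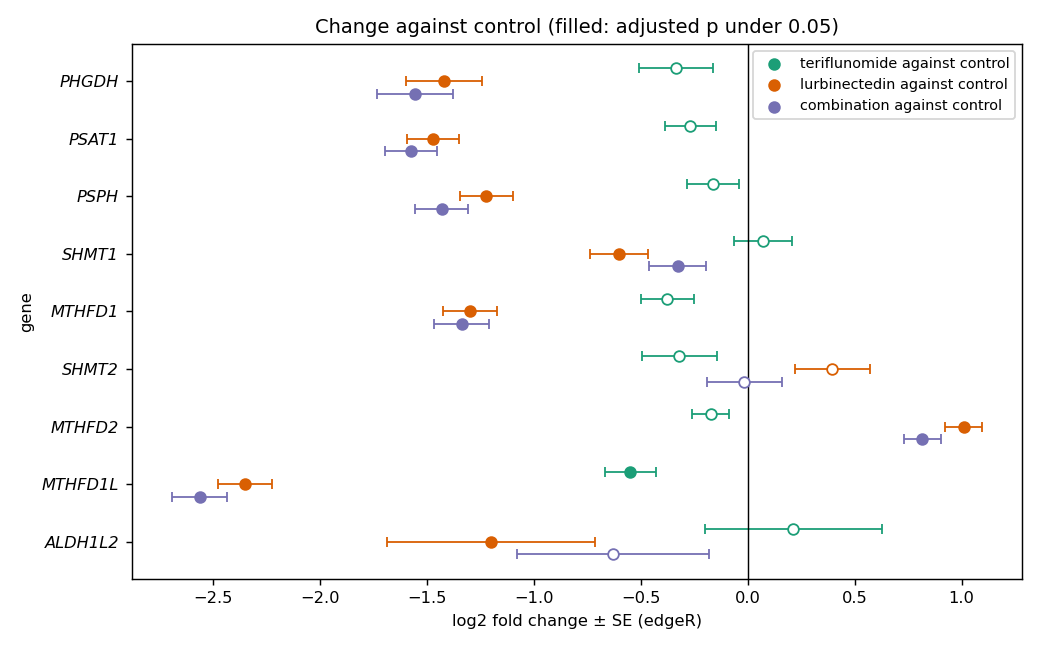
Log2 fold change against control (x axis) for the 9 genes (y axis) with teriflunomide, lurbinectedin and the combination; bars are ± SE from edgeR and filled points have an adjusted p under 0.05. MTHFD1L lies farthest to the left, at -2.35 with lurbinectedin and -2.56 with the combination, and MTHFD2 is the only gene with filled points to the right of 0.

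Comparing a mitochondrial enzyme gene with a cytosolic counterpart within a library removes the scaling between libraries. This was done for MTHFD2 with MTHFD1 and for SHMT2 with SHMT1. No such ratio was taken for MTHFD1L and ALDH1L2, where the difference went the other way. With lurbinectedin MTHFD1L had a log2 fold change of -2.35, beside -1.30 for MTHFD1. ALDH1L2 had -1.20, beside 0.60 for its cytosolic counterpart ALDH1L1. The log2 ratio of MTHFD2 to MTHFD1 counts was -0.61 ± 0.0487 (SD, n = 3) in control, -0.41 ± 0.0756 with teriflunomide, 1.71 ± 0.221 with lurbinectedin and 1.55 ± 0.324 in the combination. MTHFD2 had 0.632 to 0.676 counts per MTHFD1 count in control and 2.89 to 3.88 with lurbinectedin. The lurbinectedin difference was 2.32 (SE 0.130, exact two-sided permutation p = 0.1). The combination and lurbinectedin overlapped (-0.16, SE 0.226, exact permutation p = 0.5).

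The log2 ratio of SHMT2 to SHMT1 counts was 2.58 ± 0.107 in control, 2.15 ± 0.262 with teriflunomide, 3.57 ± 0.161 with lurbinectedin and 2.90 ± 0.140 in the combination. The groups did not overlap in any of the 5 comparisons. The difference from control was 0.99 (SE 0.112) with lurbinectedin and -0.43 (SE 0.163) with teriflunomide. The combination stood below lurbinectedin, with a difference of -0.68 (SE 0.123). Each of these had an exact permutation p of 0.1, the smallest that 3 against 3 libraries allow, and an adjusted p of 0.167 over the 15 tests of the 3 ratios, so none can pass the threshold in this design.

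**Figure D3:**
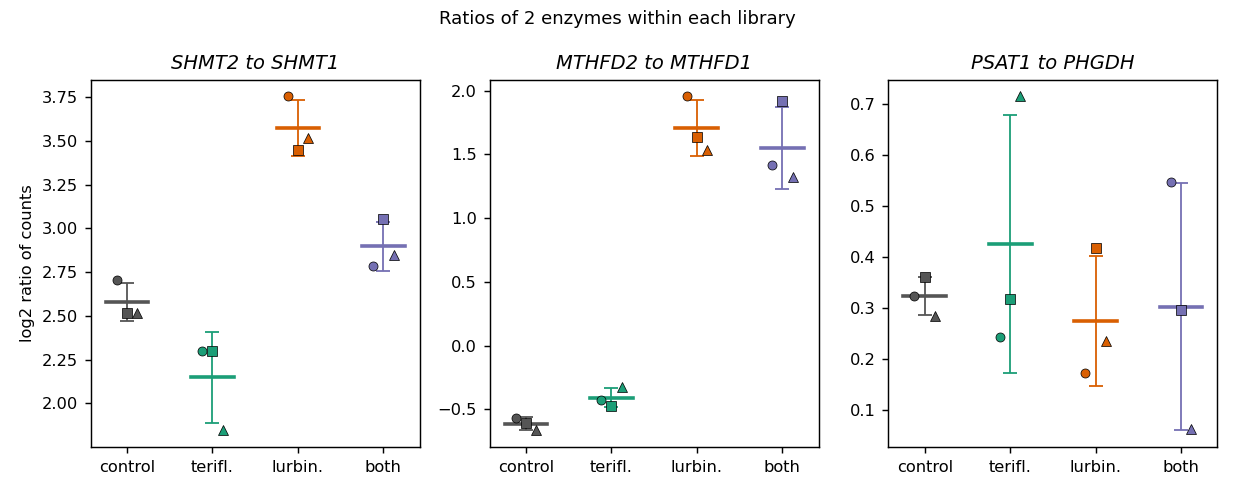
Log2 ratio of counts of the named gene pairs within each library (y axis) in the 4 treatment groups (x axis), with 1 point per library and the mean and SD over 3 libraries. The ratio of MTHFD2 to MTHFD1 is above 0 in all 6 libraries that received lurbinectedin and below 0 in the other 6, while the ratio of PSAT1 to PHGDH overlaps between all groups.

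Fold changes with lurbinectedin differed by genomic span, the distance from the first to the last exon base. When all genes were put in 5 equal bins from the shortest to the longest span, the median log2 fold change with lurbinectedin was 0.69, 0.62, 0.28, -0.36 and -1.86. MTHFD1L spans 236 kb and its log2 fold change of -2.35 was lower than all but 38.8% of the genes in the bin of longest genes. PSAT1 spans only 32.97 kb, in the middle bin, and its -1.47 was lower than all but 4.54% of the genes there. MTHFD2 spans 31.4 kb, in the same bin, and its 1.01 was above 80.7% of them. SHMT1, also in the middle bin at 35.7 kb, had a change lower than all but 16.3% of the genes there.

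PSPH (40.6 kb) and MTHFD1 (75.4 kb) lie in the next-to-longest bin, where their changes were lower than all but 18.4% and 16.9% of the genes. SHMT2 has the shortest span, 5.36 kb, and its 0.40 was near the middle of the next-to-shortest bin, above 40.0% of the genes there. The span of PHGDH depends on the annotation. It is 95.8 kb in the deposited files, which places it in the bin of longest genes and above 61.4% of that bin, but 32.3 kb in RefSeq, which places it in the middle bin, where its -1.42 was lower than all but 4.84% of the genes. For ALDH1L2 the span is 87.9 kb in the files, which places it in the bin of longest genes and above 67.8% of them. In RefSeq it is 64.7 kb, which places ALDH1L2 in the next-to-longest bin, where its -1.20 was lower than all but 18.9% of the genes. MTHFD2 spans 19.0 kb in RefSeq, against 33 kb for PSAT1, and both stay in the middle bin. SHMT2 spans 5.22 kb in RefSeq, which places it in the bin of shortest genes, above 38.8% of them.

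**Figure D4:**
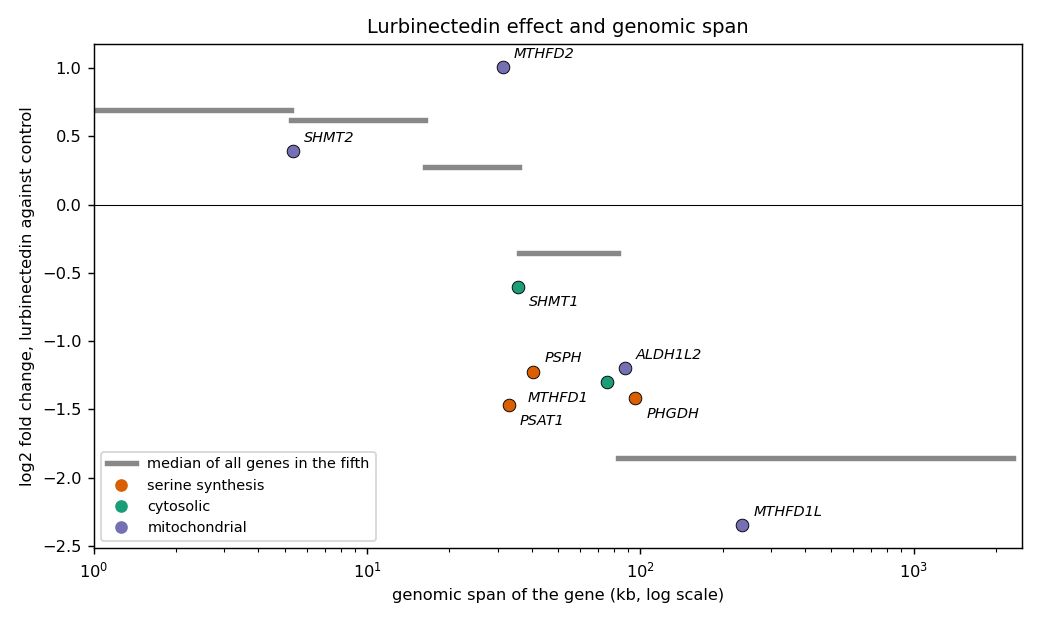
Log2 fold change with lurbinectedin against control (y axis) and genomic span in the deposited files (x axis, log scale) for the 9 genes, coloured by role, with the median of all genes in each bin of span as a grey line. PSAT1 and MTHFD2, at 32.97 and 31.4 kb in these files, lie at -1.47 and 1.01.

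Promoter windows of 300 bases, from 250 before to 50 after the annotated start, were read from a set of RefSeq promoters (GRCh38.p14). The set used here had an entry for 6 of the 9 genes and none for PSPH, SHMT2 and ALDH1L2. PSAT1 and MTHFD2 are shown because they lie in the same bin of span in both annotations and moved in opposite directions, and MTHFD1L because it fell most. The windows are PSAT1 at chr9:78296875-78297174, MTHFD2 at chr2:74198365-74198664 and the first of 4 entries for MTHFD1L at chr6:150866236-150866535, all on the plus strand, 5′ to 3′, with motif matches in capitals.
PSAT1: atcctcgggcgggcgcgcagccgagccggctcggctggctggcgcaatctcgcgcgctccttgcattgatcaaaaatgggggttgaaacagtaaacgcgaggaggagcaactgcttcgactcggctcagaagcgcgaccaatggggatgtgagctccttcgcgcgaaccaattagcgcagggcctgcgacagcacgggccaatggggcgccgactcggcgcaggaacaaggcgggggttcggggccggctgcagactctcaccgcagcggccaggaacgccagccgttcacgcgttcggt
MTHFD2: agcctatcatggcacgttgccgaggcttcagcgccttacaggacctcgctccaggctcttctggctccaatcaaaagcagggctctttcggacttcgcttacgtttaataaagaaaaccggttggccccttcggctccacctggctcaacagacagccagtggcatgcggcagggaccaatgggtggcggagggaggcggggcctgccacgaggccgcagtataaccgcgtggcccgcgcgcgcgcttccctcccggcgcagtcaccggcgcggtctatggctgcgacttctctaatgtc
MTHFD1L: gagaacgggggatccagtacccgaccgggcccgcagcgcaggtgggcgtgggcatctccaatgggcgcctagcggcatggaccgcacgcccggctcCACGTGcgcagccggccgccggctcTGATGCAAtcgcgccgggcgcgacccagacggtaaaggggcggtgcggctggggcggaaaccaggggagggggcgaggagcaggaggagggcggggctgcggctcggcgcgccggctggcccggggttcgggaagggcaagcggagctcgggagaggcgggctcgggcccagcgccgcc
The motifs searched on both strands were TGATGNAA (the core of the C/EBP-ATF response element, which ATF4 can bind), the E-box CACGTG and the cAMP response element TGACGTCA. They occur in 3.62%, 7.26% and 1.85% of all 35116 windows of this length in the RefSeq promoter set. In the MTHFD1L window CACGTG starts at position -154 and TGATGCAA at -129. Position -1 is the base directly before the annotated start, and there is no position 0. Of the 3 other MTHFD1L entries, a pair of windows overlapping this one hold the same letters at other distances from their starts, CACGTG at -1 and TGATGCAA at 25 in one, -115 and -90 in the other, and the fourth, at chr6:151006758-151007057, holds no match. The MTHFD1 window holds CACGTG at position -15, and no match was found in the windows of PHGDH, PSAT1, SHMT1 and MTHFD2. A match is a description of the letters and not evidence of a site. MTHFD1 (a match in its only window), MTHFD1L (matches in 3 of its 4 windows) and PSAT1, PHGDH and SHMT1 (no match) all fell with lurbinectedin. MTHFD2, also without a match, rose. The part of these motifs in the changes was not tested.

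With teriflunomide alone 1 of the 9 genes changed. MTHFD1L fell, with a log2 change of -0.55 (SE 0.119, edgeR adjusted p = 0.0186), and the other 8 genes were not called. The background was 6.01% of all genes called, 2.13% lower and 3.88% higher. The MTHFD1L call was lost without control replicate 1, 2 or 3 (edgeR adjusted p = 0.0664, 0.0838 and 0.103), under scaling by library size alone (0.122) and with a replicate block (0.0537). Without teriflunomide replicate 3 it was -0.49 (edgeR adjusted p = 0.00805).

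Most of the other differences with teriflunomide were also downward. MTHFD1 had a log2 change of -0.38 (SE 0.125, edgeR adjusted p = 0.0888). It was called without combination replicate 2 (-0.385, edgeR adjusted p = 0.0468). It was also called without teriflunomide replicate 3 and combination replicate 2 together (-0.33, adjusted p = 0.0119). PSAT1 stood at -0.27 (SE 0.119, adjusted p = 0.179), MTHFD2 at -0.17 (SE 0.0856) and PSPH at -0.16 (SE 0.120). For 7 of the 9 genes all teriflunomide libraries lay below all control libraries, namely the 5 just given or called, PHGDH and SHMT2, and for none did they lie above. The same arrangement held for 16.7% of all genes in the lower and 20.1% in the higher direction. The median of the 9 genes was -0.27, against 0.03 for all genes.

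Part of the teriflunomide differences lay in a single library. Teriflunomide replicate 3 deviated from the mean of its partners by -0.86 for SHMT2 and -0.77 for PHGDH on the log2 scale, and by 1.5 for ALDH1L2. Without it the difference from control went from -0.34 to -0.12 for PHGDH, from -0.32 to -0.09 for SHMT2 and from 0.21 to -0.50 for ALDH1L2, and none of these was called either way. That library also had the 22.6% share of mitochondrial counts, and the part of this in the differences was not tested.

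In the combination 6 of the 9 genes fell and 1 rose against control, the same control libraries as in the comparison of lurbinectedin alone. PHGDH, PSAT1, PSPH, SHMT1, MTHFD1 and MTHFD1L fell, MTHFD2 rose, and SHMT2 and ALDH1L2 were not called, where 34.4% of all genes were called lower, 34.1% higher and 68.4% in either direction. The log2 fold changes were -1.55 (SE 0.178) for PHGDH, -1.58 (SE 0.122) for PSAT1, -1.43 (SE 0.124) for PSPH, -1.34 (SE 0.127) for MTHFD1 and -2.56 (SE 0.127) for MTHFD1L, with edgeR adjusted p-values from 9.23e-10 to 3.28e-06. MTHFD2 rose by 0.82 (SE 0.0860, edgeR adjusted p = 1.38e-06). The median of the 9 genes was -1.34, against 0.04 for all genes.

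SHMT1 fell least in the combination, with a log2 change of -0.33 (SE 0.135, edgeR adjusted p = 0.0436). Its call was lost in 8 of the 12 fits that left out 1 library, among them each control library and combination replicates 1 and 2, with adjusted p-values up to 0.173 (without combination replicate 2). SHMT2 was at -0.02 (SE 0.175, edgeR adjusted p = 0.937). For 7 genes every combination library lay below every control library, the 6 that fell and ALDH1L2, and for MTHFD2 every one lay above, against 38.5% and 38.7% of all genes.

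What teriflunomide added to lurbinectedin was read from the combination against lurbinectedin. None of the 9 genes was called, and 0% of all genes were (0 of 16683 by edgeR). At an unadjusted p under 0.05 there were 2 of the 9 genes, SHMT2 and MTHFD2, and 15.6% of all genes, and DESeq2 called 0 of the 9 genes and 584 genes in all. SHMT2 had a log2 change of -0.41 (SE 0.176, edgeR adjusted p = 0.288), MTHFD2 of -0.19 (SE 0.0854, adjusted p = 0.300) and PSPH of -0.21 (SE 0.125, adjusted p = 0.436). For these 3 genes all combination libraries lay below all lurbinectedin libraries, which held for 12.6% of all genes, with 11.1% in the other direction. SHMT1 was on the other side, at 0.27 (SE 0.136, adjusted p = 0.347). PHGDH, PSAT1 and MTHFD1 stood at -0.14, -0.11 and -0.04, each less than its SE, MTHFD1L at -0.21 (SE 0.124) and ALDH1L2 at 0.57 (SE 0.520).

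The mitochondrial pair and SHMT1 changed their calls with the libraries used. Without teriflunomide replicate 3, which enters this comparison only through the shared spread, SHMT2 was called lower at -0.41 (edgeR adjusted p = 0.00542), and 12.1% of all genes were called. Without that library and combination replicate 2 together, SHMT2 at -0.37 (adjusted p = 0.00201) and MTHFD2 at -0.24 (adjusted p = 0.0143) were called lower and SHMT1 at 0.38 (adjusted p = 0.00280) higher, beside 21.5% of all genes called. This last selection was made after seeing the data. Combination replicate 2 had the 24.9% mitochondrial share and deviated from the mean of its partners by -0.35 for SHMT1, -0.11 for SHMT2 and 0.16 for MTHFD2 on the log2 scale. The part of that share in these differences was not tested.

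The combination against teriflunomide measures lurbinectedin in the presence of teriflunomide. MTHFD2 rose, PHGDH, PSAT1, PSPH, SHMT1, MTHFD1 and MTHFD1L fell, and SHMT2 and ALDH1L2 were not called, beside 35.2% of all genes higher, 35.8% lower and 70.9% either way. MTHFD1L had a log2 change of -2.02 (SE 0.125, edgeR adjusted p = 7.50e-09) and MTHFD2 of 0.99 (SE 0.0863, adjusted p = 1.89e-07). PHGDH, PSAT1, PSPH, MTHFD1 and MTHFD1L were lower in every combination library than in any teriflunomide library and MTHFD2 was higher, as were 35.6% and 35.1% of all genes. The median of the 9 genes was -0.96, against 0.04. The SHMT1 fall was lost without teriflunomide replicate 1 or 2 (edgeR adjusted p = 0.0626 and 0.0538), without combination replicate 2 (0.0839), with library size only (0.0599) and with only the groups compared (0.0847). Without teriflunomide replicate 3, ALDH1L2 went from -0.84 to -0.14 and SHMT2 from 0.30 to 0.06, uncalled either way.

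The interaction asks whether the effect of teriflunomide differed with and without lurbinectedin. It was called for 0 of the 9 genes by edgeR and by DESeq2, at an unadjusted p under 0.05 for 0 of them and 10.3% of all genes, and at the adjusted threshold for 0.258% of all genes (0.0360% higher, 0.222% lower). The largest well-measured values were 0.34 for MTHFD1 (SE 0.177, edgeR adjusted p = 0.547) and 0.33 for MTHFD1L (SE 0.172, adjusted p = 0.537). For MTHFD1 the teriflunomide difference was -0.38 without and -0.04 with lurbinectedin, and for MTHFD1L -0.55 and -0.21. Without teriflunomide replicate 3 and combination replicate 2 together they were 0.41 (adjusted p = 0.0339) and 0.39 (adjusted p = 0.0474), in a fit that called 10.9% of all genes.

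Genes around the pathway moved in both directions with lurbinectedin, where 36.0% of all genes were called higher, 35.7% lower and 71.6% either way. Of the folate uptake and reduction list, 7 of 8 genes were tested, and with lurbinectedin 2 rose: the transporter SLC46A1 by 1.54 (SE 0.157) and FPGS, which adds glutamates to folate, by 1.21 (SE 0.189). Of 9 other folate enzymes, 3 rose and 2 fell, together a smaller share than the 71.6% of all genes. MTHFD2L, the mitochondrial paralog of MTHFD2, went from 66.4 ± 3.16 to 24.2 ± 4.56 CPM (log2 fold change -1.46, SE 0.175, edgeR adjusted p = 4.49e-06), opposite to MTHFD2. ALDH1L1, the cytosolic counterpart of ALDH1L2, rose by 0.60 (SE 0.210, adjusted p = 0.0194).

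The glycine cleavage system, the other mitochondrial source of folate-bound carbon, was nearly silent: GLDC was at most 0.210 CPM and AMT at most 0.126 CPM in any library, and only GCSH and DLD passed the filter. DLD, which also serves other dehydrogenase complexes, changed by -0.53 (SE 0.122, edgeR adjusted p = 0.00150) with lurbinectedin. In the methionine cycle and transsulfuration, 7 of 8 genes were tested, 2 rose and 1 fell, again below the 71.6% of all genes. MTR, the methionine synthase that uses methyl-folate, changed by -1.64 (SE 0.146, adjusted p = 2.24e-07) and MAT2B by 0.30 (SE 0.107). Medians of these lists with lurbinectedin were 0.24 for uptake and reduction, -0.02 for other folate enzymes, -0.42 for glycine cleavage and 0.06 for the methionine cycle.

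Among 12 of 13 tested genes of serine transport and use, 2 rose and 6 fell with lurbinectedin, beside 36.0% and 35.7% of all genes, with a median of -0.33. SLC1A5, a neutral amino acid transporter, went from 221.0 ± 1.71 to 527.4 ± 53.1 CPM (log2 fold change 1.26, SE 0.261, edgeR adjusted p = 0.000658). SPTLC2, a subunit of the enzyme that draws serine into sphingolipids, changed by -1.67 (SE 0.123, adjusted p = 3.27e-08). With teriflunomide 0 of these 12 genes were called, beside 6.01% of all genes.

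ATF4 mRNA and its targets outside the pathway were examined because ATF4 can drive serine synthesis genes. ATF4 was at 210.2 ± 5.91 CPM in control, 166.4 ± 31.1 with teriflunomide, 266.4 ± 13.2 with lurbinectedin and 263.0 ± 20.7 in the combination. It rose by 0.34 (SE 0.123, edgeR adjusted p = 0.0226) with lurbinectedin and by 0.32 (SE 0.123, adjusted p = 0.0308) in the combination. In both comparisons PHGDH, PSAT1 and PSPH fell and MTHFD2 rose. The part of ATF4 in these changes was not tested. Of 20 ATF4 targets outside the pathway, 10 rose and 6 fell with lurbinectedin, and 7 rose and 6 fell in the combination. The shares of all genes were 36.0% higher and 35.7% lower with lurbinectedin and 34.1% and 34.4% in the combination, so the combination counts lie near the background. The lurbinectedin median was 0.28, against 0.05 for all genes. ATF3, a stress-induced factor, rose by 5.83 (SE 0.155, edgeR adjusted p = 8.38e-12). NUPR1, also counted as rising, had 3, 1 and 0 counts in control and 26, 45 and 39 with lurbinectedin. It passed the expression filter only through libraries that received lurbinectedin. A large rise of NUPR1 (4.98, SE 0.494) was therefore fixed by the filter, and nothing is concluded from it. With teriflunomide 1 of the 20 targets rose and 3 fell, beside 3.88% and 2.13% of all genes. ATF3 rose by 0.79 (SE 0.146, adjusted p = 0.00832). The amino acid transporter SLC7A5 changed by -0.88 (SE 0.190, adjusted p = 0.0180), DDIT4 by -0.80 (SE 0.147, adjusted p = 0.00807) and ATF5 by -0.49 (SE 0.124, adjusted p = 0.0359). The teriflunomide libraries had 155.2, 136.7 and 77.4 CPM for SLC7A5 and 84.9, 88.7 and 54.4 CPM for DDIT4, with replicate 3 far below its partners. For ATF5 they had 37.4, 33.1 and 38.3 CPM. All of these values lay below the control libraries.

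With teriflunomide, where 6.01% of all genes were called, 1 of 7 tested genes of folate uptake and reduction, 1 of 9 other folate enzymes, 1 of 7 genes of the methionine cycle list, 1 of 10 regulators and 0 of 2 glycine cleavage genes were called. SLC25A32, the mitochondrial folate carrier, changed by -0.70 (SE 0.153, edgeR adjusted p = 0.0197), GART, a purine synthesis enzyme that uses formyl-folate, by -0.43 (SE 0.0807, adjusted p = 0.00878), and MAT2A, which makes S-adenosylmethionine, by -0.42 (SE 0.0908, adjusted p = 0.0189). SLC25A32 went from 5.22 ± 0.727 to 3.23 ± 0.101 CPM. Among the regulators, MDM2 rose by 0.93 (SE 0.137, adjusted p = 0.00211) with teriflunomide and by 2.42 (SE 0.143, adjusted p = 3.63e-09) with lurbinectedin, where KMT2C changed by -3.80 (SE 0.245).

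**Figure D5:**
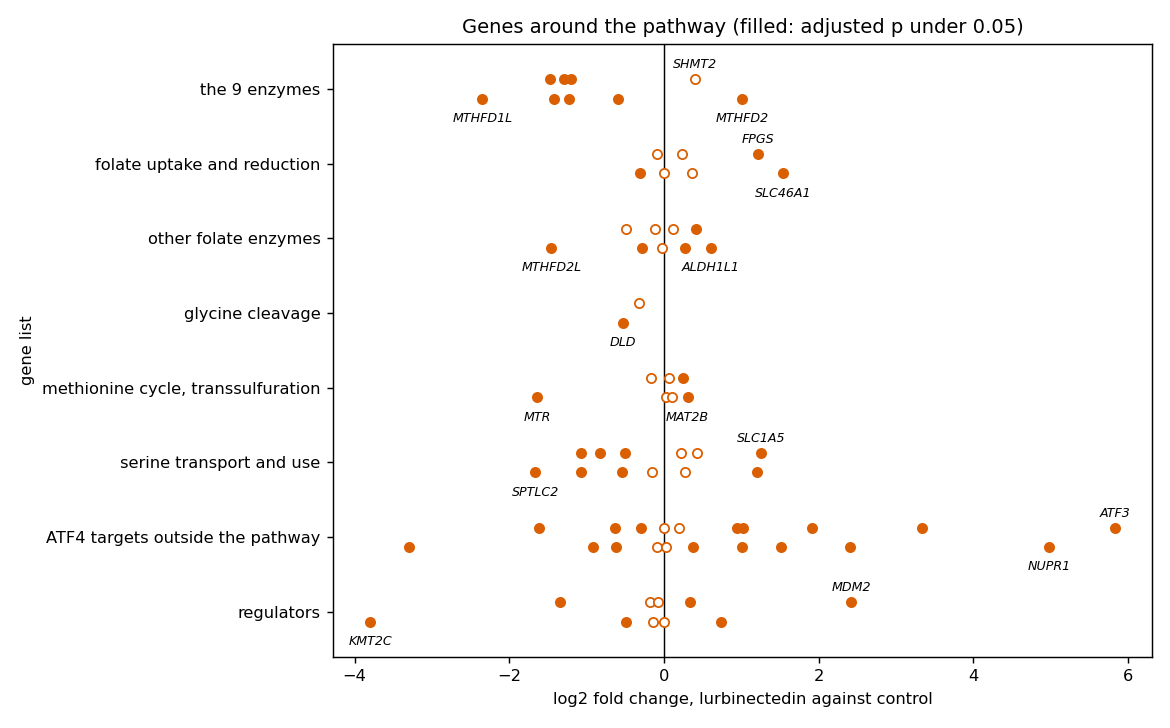
Log2 fold change with lurbinectedin against control (x axis) for the 9 enzymes and 7 lists of genes around the pathway (y axis), 1 point per gene that passed the filter, filled where the adjusted p was under 0.05. The methionine cycle, serine transport and ATF4 target lists have called genes on each side of 0, and MTHFD2L lies at -1.46 while MTHFD2 lies at 1.01.

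Across the 12 libraries, PSAT1 correlated in log2 CPM with PSPH at r = 0.988, MTHFD1 at 0.985 and MTHFD1L at 0.991, and with MTHFD2 at -0.927. These are descriptions, since the libraries fall into a set with and a set without lurbinectedin and many genes follow that division. The gene outside the group most like PHGDH was ERI3 (r = 0.995), for PSAT1 MRPS27 (0.997), for PSPH DHX35 (0.995) and for MTHFD1 RASA3 (0.995). For MTHFD1L it was NUP98 (0.997), for MTHFD2 KLF11 (0.998), for SHMT1 CASTOR2 (0.985) and for ALDH1L2 S1PR5 (0.959). SHMT2 was most like CYC1 (0.994), a subunit of respiratory complex III, with log2 fold changes of -0.45 (teriflunomide), 0.42 (lurbinectedin) and -0.04 (combination), beside -0.32, 0.40 and -0.02 for SHMT2.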

How the data were processed

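RNA was sequenced from 12 SBC3 libraries, grouped by the treatment label. The values are raw read counts per gene as the authors deposited them, in the column layout of featureCounts per the file headers, with a Length column of summed exon bases. The submitters' processing notes name fastp 0.23.2, STAR 2.7.9, featureCounts of Subread and hg38. The annotation release, strand use and handling of multi-mapping reads are not given in the sources used here. Start and end matched GENCODE 29 (GRCh38) for all 37318 identifiers whose version it shares. A symbol table matched 60463 of 60649 identifiers (99.7%).

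Counts were tested with edgeR 4.0.16 in R 4.3.3: filterByExpr (16683 genes), TMM scaling, 1 mean per group over all 12 libraries, robust quasi-likelihood fits, 6 contrasts, Benjamini-Hochberg adjustment over all genes within a contrast. SEs were derived from the F statistic. The scripts were tested on simulated data. The biological coefficient of variation was 14.5%. Levels are TMM-scaled CPM, and per kilobase of Length between genes. Ratios of counts were compared by exact permutation. No pair of libraries held identical counts.

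The 9 genes, the 7 lists of other pathway genes and the tests were chosen with earlier results of these data known. Named genes are the 9, ATF4, from each list at most 2 called genes with the largest change in each contrast with control, the genes most correlated with each member (the first of 3), overlapping genes and copies; GLDC, AMT, GCSH and ATF5 were named after their values were seen. The values of 2 listed genes are not reported here. Alternatives were DESeq2 1.42.0 and its size factors, library size only, no filter or 1 CPM in 3 libraries, a replicate block, only the groups compared, and each library left out.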

Additional observations from a re-analysis of the deposited data

How the results depend on the processing

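Against control with lurbinectedin, PHGDH, PSAT1, PSPH, SHMT1, MTHFD1 and MTHFD1L were called lower and MTHFD2 higher in all 20 alternative settings run. PHGDH, PSAT1, PSPH, MTHFD1, MTHFD1L and MTHFD2 kept their calls in all 20 of them with the combination too. Leaving out 1 library at a time, or the 2 with high mitochondrial shares together, gave 7 to 9 genes called with lurbinectedin, 6 to 7 with the combination, 0 to 2 with teriflunomide, 0 to 3 for the combination against lurbinectedin, 6 to 8 against teriflunomide and 0 to 2 for the interaction. The teriflunomide count of 1 became 0 with library size only and 2 with no expression filter or DESeq2. Same-numbered libraries did not deviate together (correlations of -0.402 to 0.144, 1 of 18 pairs over 0.1), so the numbers are not taken as pairs. With a replicate block the counts were 0 for teriflunomide, 8 for lurbinectedin and 6 for the combination against control, the last without SHMT1 (adjusted p = 0.0737). Library size only gave 39.2% higher calls with lurbinectedin where TMM gave 50.2%, and moved the median of all genes from 0.05 to -0.18; MTHFD2 was then at 0.78 and MTHFD1L at -2.58. With the combination that scaling moved the median to -0.13 and SHMT1 was not called (-0.48, adjusted p = 0.0674).

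Values that changed sign were uncalled. Leaving out 1 library at a time, those with teriflunomide were SHMT1 (-0.0043 to 0.19) and ALDH1L2 (-0.50 to 0.51, and -0.50 without teriflunomide replicate 3 and combination replicate 2 together, a setting chosen after seeing the data). In the combination against control SHMT2 ranged from -0.10 to 0.020, and was 0.031 with the 1 CPM filter and 0.014 without the 2 libraries. In the combination against lurbinectedin MTHFD1 ranged from -0.14 to 0.084, and was 0.040 with library size only and 0.083 without the 2 libraries. Interactions ranged from -0.0061 to 0.37 for PHGDH, -0.14 to 0.052 for PSPH, -0.32 to 0.051 for SHMT2 and -0.061 to 0.041 for MTHFD2. With library size only they were 0.10 for PSPH, 0.028 for SHMT2 and 0.12 for MTHFD2, and MTHFD2 was also 0.0017 with DESeq2 size factors, 0.0015 with DESeq2 and 0.019 with no filter. The log2 ratio of PSAT1 to PHGDH ranged from -0.043 to 0.19 for teriflunomide, -0.12 to 0.0028 for lurbinectedin and -0.14 to 0.099 for the combination against control, and for the combination from -0.095 to 0.15 against lurbinectedin and -0.25 to 0.022 against teriflunomide. The causes were not tested. Counts of 6 to 75 per library limit what can be said of ALDH1L2.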
